A study of Homo sapiens with 39 samples.

Results

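Cisplatin at 2, 5 and 10 µM was examined in HepaRG™ cells, a human liver line whose progenitors mature in culture into cells resembling hepatocytes and bile duct cells. The members were chosen by their sample labels: 3 cisplatin libraries, set against the matched DMSO vehicle control, out of 39 libraries in all. The DMSO controls of 3 other sets (2-nitrofluorene, 2NF; aflatoxin B1 with colchicine, AFB1 and COL; etoposide, ETP) gave the spread between untreated libraries. All cultures were differentiated cryopreserved cells of 1 tumour-derived line, rested for 7 days after seeding and then given chemical or vehicle on 3 consecutive days, and RNA was taken 7 h after the last addition (55 h in all). RNA of 3 cultures was pooled into 1 library per condition, so no single concentration has a replicate and differences among the cultures cannot be seen. Control values below are given in the order matched control, 2NF set, AFB1 and COL set, ETP set, and treated values in the order 2, 5 and 10 µM.

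Cisplatin is a platinum drug that binds purine bases and links neighbouring bases within a strand, or bases on opposite strands. Such adducts stall RNA and DNA polymerases. They are removed by nucleotide excision repair, the Fanconi anaemia pathway and homologous recombination, or bypassed by translesion polymerases. Damage signalling through ATM and ATR stabilises p53, which then drives genes of cell cycle arrest, repair, cell death and its own feedback. In the hepatocyte, copper carriers, organic cation transporters, metallothioneins and glutathione are known to handle platinum.

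The 7 libraries held between 9548911 and 15224146 counts on gene targets. Levels are given as RPM, the reads of a gene scaled to a common library total, and log2 ratios compare log2(RPM + 1) with the matched control for the 12598 genes with a mean of at least 1 RPM over the 7 libraries. The 2 and 5 µM libraries stood apart by the number of genes past 2-fold against the matched control. By correlation the 2 µM library was nearest to the DMSO control of the ETP set (r = 0.985). Its r with the 4 DMSO controls ran from 0.962 to 0.985, and that of the 5 µM library from 0.967 to 0.974. Among the DMSO controls r was 0.981 to 0.987. In the 2 µM library, 41 genes were past 2-fold higher and 855 past 2-fold lower than the matched control, and in the 5 µM library 115 and 553, whereas in the 10 µM library the numbers were 57 and 49. The other DMSO controls had 76 and 36, 126 and 42, and 4 and 166 such genes against the same control, so the 10 µM library differed from its control by no more genes than untreated libraries did. In the 5 µM library the median log2 ratio followed the GC content of the transcript, from -0.31 for genes under 40% GC to 0.27 for genes over 60% GC, against 0.01 to 0.08 in the 10 µM library and -0.17 to 0.08 in the 2 µM library. In the other DMSO controls these medians lay between -0.08 and 0.09. The part of the GC content in the results at 5 µM was not tested beyond the gene-span comparison below.

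The first question was which genes followed the concentration. With 1 slope for each chemical over all 39 libraries (the fitted log2 change from vehicle to 10 µM), 0 of 13812 genes passed an adjusted p of 0.05 in edgeR (0.0%), and 678 genes had an unadjusted p under 0.05 (4.91%), of which 298 had a positive slope. DESeq2 on the same design called 7 genes, 1 up and 6 down. CDC25A rose, and WWOX, B3GALT1, CAMK1D, MAD1L1 and PARD3B were among those that fell. WWOX, a putative tumour suppressor gene at a fragile site, was at 9.65, 10.9, 8.02 and 9.15 RPM in the DMSO controls and at 6.31, 5.29 and 1.67 RPM with cisplatin. All 3 treated values lay below all 4 controls, with a slope of -2.37 ± 0.45 (SE) and an adjusted p of 0.121 in edgeR against 0.0068 in DESeq2. CDC25A, a phosphatase that activates cyclin-dependent kinases, was at 1.07, 2.09, 1.22 and 0.757 RPM in controls and at 1.12, 1.61 and 5.09 RPM with cisplatin. Only the 10 µM library was outside the control range (slope 2.38 ± 0.45, adjusted p of 0.121 in edgeR and 0.0342 in DESeq2). MAD1L1, a mitotic checkpoint gene, was at 50.5, 52.2, 49.5 and 55.2 RPM in controls and at 39.2, 35.9 and 24.4 RPM with cisplatin, without overlap (slope -1.02 ± 0.22, adjusted p of 0.241 in edgeR and 0.0342 in DESeq2). Without the 10 µM library edgeR called 444 genes, 94 up and 350 down, and without the matched control 20 genes, 17 up and 3 down, while leaving out the 2 or the 5 µM library gave 0. Without the 10 µM library the line is extended from 5 to 10 µM. Without the matched control the slope compares the treated libraries only and is no change from vehicle.

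Gene by gene, the 2 µM library departed from the line through the matched control, 5 and 10 µM. edgeR called 19 genes above (0.135%) and 254 below it (1.8%) of 14107 tested. The largest departures above were HEXA, DIAPH2, YIPF4, UBFD1, ZNRD1 and IER5L, with departures of 0.97 to 2.11 (log2), and the largest below CEBPB, HLA-C, SCARNA5, MAP3K4, MGRN1 and PCLO, with -3.72 to -2.98. HEXA, a lysosomal hexosaminidase subunit, was at 22.0, 17.8, 27.4 and 35.3 RPM in controls, at 86.2 RPM at 2 µM, and at 18.0 and 20.7 RPM at 5 and 10 µM (adjusted p = 0.0184, edgeR). CEBPB, a transcription factor of the acute-phase and stress responses, was at 48.0, 61.9, 53.8 and 21.5 RPM in controls, at 3.61 RPM at 2 µM, and at 51.3 and 50.3 RPM at 5 and 10 µM (adjusted p = 0.0265, edgeR). The lowest control value was that of the ETP set. HLA-C, a class I antigen-presenting molecule, was at 31.5 to 86.8 RPM in controls, at 7.62 RPM at 2 µM, and at 115.2 and 84.2 RPM at 5 and 10 µM (adjusted p = 0.0261, edgeR). MGRN1, a ubiquitin ligase, was at 44.8 to 97.8 RPM in controls, at 12.0 RPM at 2 µM, and at 100.4 and 86.1 RPM at 5 and 10 µM (adjusted p = 0.0151, edgeR). The 254 genes below the line were chosen as low in the 2 µM cisplatin library. Their median deviation from the median of all 39 libraries was -1.16 (log2) there. In the libraries that set the line it was 0.21 (matched control), 0.14 (5 µM) and 0.16 (10 µM). The deviation was also -0.56 and -0.43 in 2 media controls, -0.40 with 2-deoxy-D-glucose at 1.25 mM and -0.24 in the DMSO control of the ETP set. Lower levels of these genes were thus also seen in untreated libraries, and the departure describes 1 library.

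The p53 target genes were examined next, as 4 lists with 60 members passing the RPM filter of 64 listed. At 10 µM, 45 of 60 lay above the range of the 4 DMSO controls, where 25.0% of all genes did, and 1 of 60 lay below, where 16.5% did. At 5 µM, 24 were above and 12 below (29.1% and 31.1% of all genes), and at 2 µM 16 were above and 19 below (25.3% and 32.6%). The median log2 ratio of the 60 genes was -0.06, 0.16 and 0.27 at 2, 5 and 10 µM, against 0.03 for all genes at 10 µM and -0.11 to -0.0024 in the other DMSO controls. The size was small: none of the 60 was past 2-fold at 10 µM, and 0 passed the slope test in edgeR, where 9 had an unadjusted p under 0.05 and 49 of 60 a positive slope. All 3 cisplatin libraries lay above the DMSO range for 6 of 60, against 5.06% of all genes. Without the 2 µM library the number was 22 of 60, against 11.4%, and without the 5 µM library 11 of 60, against 8.6%.

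Among feedback genes, MDM2, the ubiquitin ligase that degrades p53, was at 396.6, 430.5, 390.3 and 240.7 RPM in controls and at 245.6, 390.9 and 600.8 RPM with cisplatin. The 10 µM value alone was above the controls, and the 2 µM value lay next to the lowest control (slope 0.79 ± 0.50, adjusted p = 0.979, edgeR). This slope was 0.075 without the 10 µM library, where the line is extended from 5 to 10 µM. It was 1.43 without the matched control, where only the treated libraries are compared. PPM1D, a phosphatase that turns the damage signal off, was at 21.4, 25.8, 23.6 and 23.0 RPM in controls and at 29.6, 20.7 and 31.9 RPM with cisplatin. Of the 8 feedback genes, 5 were above and 1 below the control range at 10 µM, with a median log2 ratio of 0.22.

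Of the 12 arrest genes, 11 were above the control range at 10 µM and the median log2 ratio was 0.38. CDKN1A, which encodes the cyclin-dependent kinase inhibitor p21, was at 555.4, 613.3, 504.6 and 619.0 RPM in controls and at 732.7, 783.0 and 744.5 RPM with cisplatin. All 3 treated libraries were above all controls and showed no order with concentration, and the slope was 0.28 ± 0.26 (adjusted p = 0.979, edgeR). Without the matched control this slope had the other sign. That fit has no vehicle of this set, so it compares the treated libraries only. BTG2, an antiproliferative gene, was at 57.2, 82.1, 68.2 and 67.9 RPM in controls and at 51.0, 85.5 and 93.3 RPM with cisplatin. PLK2, a polo-like kinase, was at 101.5, 96.3, 144.3 and 91.6 RPM in controls and at 97.4, 100.2 and 194.7 RPM, only the 10 µM value being outside. GDF15, a secreted stress cytokine, was at 79.2, 68.3, 139.1 and 119.1 RPM in controls and at 61.7, 162.6 and 144.8 RPM, below the controls at 2 µM and above them at 5 and 10 µM. Between controls GDF15 differed by up to 1.02 (log2).

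Of the 20 death genes, 17 were above the control range at 10 µM and none below, with a median log2 ratio of 0.34. FAS, a death receptor, was at 48.8, 60.3, 50.8 and 51.9 RPM in controls and at 66.0, 75.1 and 76.7 RPM with cisplatin, every treated value above every control (slope 0.52 ± 0.27, adjusted p = 0.979, edgeR). Its slope was 1.16 without the 10 µM library, extended from 5 to 10 µM. It was 0.10 without the matched control, over the treated libraries only. BAX, a mitochondrial effector of apoptosis, was at 115.3, 134.9, 133.7 and 113.6 RPM and at 153.4, 181.1 and 159.2 RPM, also without overlap. TP53I3, a quinone oxidoreductase, was at 84.5, 87.5, 75.0 and 64.8 RPM in controls and at 60.5, 111.1 and 123.6 RPM with cisplatin, the 2 µM value being the lowest of the 7. BBC3, the BH3-only protein PUMA, was at 3.88, 4.82, 4.73 and 5.98 RPM and at 8.34, 7.56 and 7.13 RPM.

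Of the 20 genes of repair and metabolism, 12 were above the control range at 10 µM (median log2 ratio 0.17). DDB2, which recognises damaged bases in nucleotide excision repair, was at 36.4, 48.2, 55.1 and 41.1 RPM in controls and at 47.1, 47.5 and 65.2 RPM with cisplatin (slope 0.71 ± 0.25, adjusted p = 0.816, edgeR). XPC, its partner in damage recognition, was at 158.3, 142.4, 145.4 and 164.1 RPM in controls and at 192.5, 116.4 and 180.4 RPM, above the controls at 2 and 10 µM and below them at 5 µM. POLH, the polymerase that copies past platinum adducts, was at 31.3, 27.4, 37.6 and 30.9 RPM in controls and at 35.7, 23.1 and 45.1 RPM, with the same order of the 5 µM library below and the 10 µM library above the controls. FDXR, a mitochondrial ferredoxin reductase, was at 48.6, 37.8, 51.5 and 40.4 RPM in controls and at 71.0, 56.7 and 74.5 RPM, without overlap.

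Genes of DNA replication and mitosis were mostly above the controls at 10 µM. At 10 µM, 20 of 24 replication genes and 21 of 22 mitosis genes lay above the DMSO range and none below, where 25.0% and 16.5% of all genes did. Their median log2 ratios at 2, 5 and 10 µM were 0.34, 0.01 and 0.65 for replication and 0.43, 0.35 and 0.70 for mitosis. In the other DMSO controls the mitosis median was -0.34 to -0.08, since the matched control was the highest of the 4. At the highest concentration of each other chemical, against its own control, this median was 2.65 with 2NF, 1.90 with COL and 1.71 with AFB1. It was 1.17 with methyl methanesulfonate, 0.63 with ETP, 0.62 with sodium ascorbate and 0.15 with 2-deoxy-D-glucose. With ampicillin and sodium chloride it was -0.25 and -0.42. The highest concentration did not always have the highest median: it was 1.24 with ETP at 2.5 µM and 1.26 with methyl methanesulfonate at 100 µM. These differences between chemicals were not tested. In the slope test 0 genes of either list passed in edgeR, and 5 replication genes and 0 mitosis genes had an unadjusted p under 0.05. All 3 cisplatin libraries were above the DMSO range for 5 replication genes (MCM2, MCM4, MCM7, TYMS and TK1) and 9 mitosis genes, against 5.06% of all genes. Above the range in both the 2 and 10 µM libraries were 11 and 14, against 8.6% of all genes. In both the 5 and 10 µM libraries the numbers were 7 and 13, against 11.4%. TYMS, thymidylate synthase, was at 71.2, 83.6, 92.6 and 76.6 RPM in controls and at 124.5, 128.0 and 159.7 RPM with cisplatin. PCNA, the sliding clamp of the replication fork, was at 57.8, 57.1, 54.0 and 64.8 RPM in controls and at 60.04, 45.1 and 94.4 RPM, above the controls at 10 µM only and below them at 5 µM. CDC6, which loads the replicative helicase, was at 8.66, 8.38, 9.02 and 5.90 RPM and at 7.03, 8.41 and 16.6 RPM. TOP2A, topoisomerase II alpha, was at 38.1, 24.8, 28.4 and 31.8 RPM in controls and at 54.8, 35.5 and 74.0 RPM. TTK, a spindle checkpoint kinase, was at 3.88, 4.08, 4.37 and 5.07 RPM in controls and at 7.09, 9.17 and 11.8 RPM, without overlap and in the order of concentration.

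Because most of these genes were above the controls together at 10 µM, promoters are shown. RefSeq promoters (GRCh38.p14, 250 bases before to 50 after the start site) were found for 21 of the 24 replication genes and 18 of the 23 listed mitosis genes. An E2F motif (TTTCCCGC or TTTGGCGC, either strand) was in 12 of 21 replication promoters (57.1%), 1 of 18 mitosis promoters (5.56%) and 2.27% of all 35116 promoters. The cell cycle homology region motif (CHR, TTTGAA, either strand) was in 12 of 18 mitosis promoters (66.7%), 1 of 21 replication promoters (4.76%) and 15.2% of all promoters. A match is a description of the letters in this window and not a bound site. The 3 replication and 3 mitosis promoters below are examples, from genes above the DMSO range at 10 µM with a motif. They were picked for a large 10 µM log2 ratio from a part of the listed genes. Genes with a motif and a larger ratio may therefore be missing. Each is shown with up to 50 bases on either side of the motif nearest to the start site, 5′ to 3′ on the gene's strand, with motif bases in capitals.
TYMS (E2F, chr18:657564-657671, plus strand): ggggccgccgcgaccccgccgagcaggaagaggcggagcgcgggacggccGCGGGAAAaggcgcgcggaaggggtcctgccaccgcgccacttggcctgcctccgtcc
GINS1 (E2F, chr20:25407628-25407722, plus strand): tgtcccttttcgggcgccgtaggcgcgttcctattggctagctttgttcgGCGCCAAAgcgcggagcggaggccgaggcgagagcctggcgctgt
CDC6 (E2F, chr17:40287836-40287928, plus strand): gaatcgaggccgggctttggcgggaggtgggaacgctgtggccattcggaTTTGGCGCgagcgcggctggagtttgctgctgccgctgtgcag
DLGAP5 (CHR, chr14:55191536-55191632, minus strand): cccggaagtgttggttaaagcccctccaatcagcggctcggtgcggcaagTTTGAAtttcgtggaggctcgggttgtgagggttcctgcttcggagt
CDK1 (CHR, chr10:60778120-60778225, plus strand): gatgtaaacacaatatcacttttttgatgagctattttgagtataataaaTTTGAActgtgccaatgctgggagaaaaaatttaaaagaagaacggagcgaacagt
TOP2A (CHR, chr17:40417992-40418097, minus strand): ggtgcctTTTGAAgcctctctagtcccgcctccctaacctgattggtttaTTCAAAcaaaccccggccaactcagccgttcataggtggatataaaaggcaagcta

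The repair pathways of platinum adducts differed between the libraries. For the counts that follow, 25.0% of all genes were above and 16.5% below the range at 10 µM, 29.1% and 31.1% at 5 µM, and 25.3% and 32.6% at 2 µM. Of 22 Fanconi anaemia genes, 13 were above the DMSO range at 10 µM and none below (median log2 ratio 0.23), but at 5 µM 4 were above and 11 below (median -0.18). FANCG was at 8.33, 10.5, 11.3 and 10.1 RPM in controls and at 9.85, 12.0 and 14.0 RPM with cisplatin. Of 15 genes of homologous recombination, 10 were above the range and none below at 10 µM (median 0.18), whereas at 5 µM 2 were above and 5 below (median -0.28). Of 30 genes of nucleotide excision repair, 11 were above and none below at 10 µM (median 0.08), and 11 were above and 11 below at 5 µM (median -0.01). Of 12 translesion genes, 5 were above and 1 below at 10 µM (median -0.0017), but none was above and 8 were below at 2 µM (median -0.49), and 2 were above and 6 below at 5 µM (median -0.31). Of 9 mismatch repair genes 1 was above and 1 below at 10 µM (median 0.05), and 2 were above and 5 below at 5 µM (median -0.51). Among 19 checkpoint genes, 10 were above and none below at 10 µM (median 0.27), and 7 were above and 4 below at 5 µM (median -0.10). CLSPN, the claspin adaptor of the ATR to CHK1 signal, was at 4.29, 4.61, 5.30 and 5.30 RPM in controls and at 3.88, 6.99 and 7.22 RPM. None of these genes except CDC25A passed a slope test: 0 were called by edgeR.

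The genes lowest at 10 µM were long. At 10 µM, 41 genes were past 2-fold lower than the matched control and below the DMSO range (0.325%), and 45 past 2-fold higher and above it (0.357%). At 2 µM these numbers were 838 (6.65%) and 31 (0.246%), and at 5 µM 525 (4.17%) and 99 (0.786%). Gene span, from the first to the last base of the gene in GENCODE release 29, was found for 38 of the 41 lower genes: 30 of them (78.9%) spanned over 100 kb and 25 (65.8%) over 300 kb, with a median of 457 kb. Among all 12013 genes with a span, 20.1% were over 100 kb and 3.95% over 300 kb, with a median of 33.1 kb. The 44 higher genes with a span had a median of 22.7 kb, and 3 of them were over 100 kb. Of the 838 lower genes at 2 µM and the 525 at 5 µM, 17.9% and 28.8% of those with a span were over 100 kb. The slopes rest in part on the same 10 µM library and matched control, so they are not a separate observation. Of genes with an unadjusted p under 0.05 in edgeR, 64.9% of those with a negative slope spanned over 100 kb (median 192 kb). Of those with a positive slope, 6.86% did (median 20.6 kb). Gene span was looked at after the single genes had been seen, and these shares are a description.

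FHIT, another tumour suppressor gene at a fragile site, spans 1502 kb. It was at 23.7, 25.2, 21.5 and 20.2 RPM in controls and at 14.3, 13.1 and 7.32 RPM with cisplatin, every treated value below every control and in the order of concentration (slope -1.59 ± 0.38, unadjusted p = 0.000297 and adjusted p = 0.373 in edgeR). WWOX, given above, spans 1113 kb. MACROD2, a mono-ADP-ribose hydrolase gene of 2058 kb, was at 5.11, 7.02, 3.15 and 4.69 RPM in controls and at 2.50, 1.70 and 1.11 RPM, again without overlap. MAGI1, a junction scaffold of 685 kb, was at 17.6, 15.9, 15.4 and 15.2 RPM in controls and at 10.4, 12.6 and 6.48 RPM. PRKAG2, a regulatory subunit of AMP-activated kinase spanning 321 kb, was at 14.6, 16.2, 15.8 and 14.8 RPM in controls and at 8.14, 6.81 and 4.63 RPM. PARD3B (1074 kb), a polarity gene, was at 23.3, 17.7, 24.3 and 28.5 RPM in controls and at 21.6, 17.4 and 9.17 RPM, so its 2 µM value lay within the controls. CAMK1D (486 kb), a calmodulin-dependent kinase, was at 26.3, 20.7, 21.5 and 21.5 RPM in controls and at 23.9, 17.2 and 12.2 RPM, also within the controls at 2 µM. These genes were named after their values were seen. Short genes among the 41 included CYP1A2 (7.36 kb), APOA5 (3.05 kb) and ALDH3A1 (10.96 kb). B3GALT1 had a span of 5.09 kb in this annotation, but that entry may hold only a part of the gene.

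**Figure D1:**
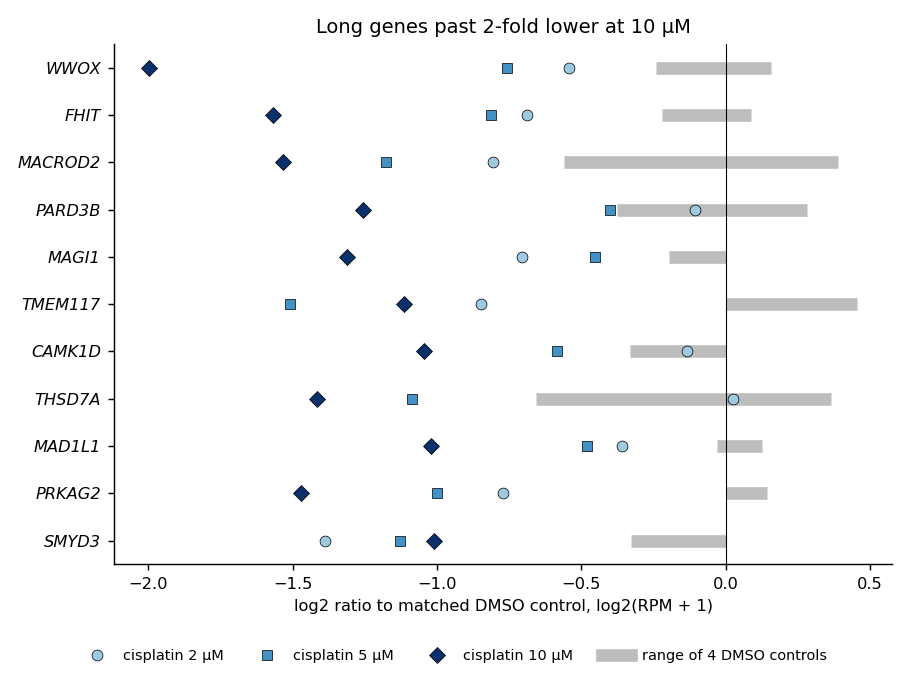
Log2 ratio to the matched DMSO control, log2(RPM + 1), of 11 long genes past 2-fold lower at 10 µM, for cisplatin at 2, 5 and 10 µM, with grey bars for the range of the 4 DMSO controls. For WWOX and FHIT the 3 points lie left of the bar and in the order of concentration, whereas the 2 µM points of PARD3B and CAMK1D lie on the bar.

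Over all genes, the median log2 ratio at 10 µM was 0.09 for 2352 genes spanning under 10 kb, 0.07 for 10 to 30 kb, 0.03 for 30 to 100 kb, -0.05 for 100 to 300 kb and -0.30 for 475 genes over 300 kb. Of those 475 genes, 59.6% lay below the DMSO range and 4.0% above it, against 12.9% and 27.3% of the genes under 10 kb. At 5 µM the medians ran from 0.18 to -0.35 and at 2 µM from 0.04 to -0.11. The difference between genes over 300 kb and under 10 kb was -0.16, -0.53 and -0.39 at 2, 5 and 10 µM, against -0.12, 0.02 and -0.04 in the other DMSO controls. The 2 µM value thus lay close to the lowest control. Among genes with a transcript GC content of 40 to 50% (292 long and 603 short genes), the difference was -0.09, -0.41 and -0.38, and the 2 µM value was no lower than the -0.11 of the DMSO control of the 2NF set. The 5 and 10 µM values lay below all controls in both forms.

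Set beside the other chemicals, each against its own control and at its own concentrations, the span difference was -0.11, -0.13 and -0.48 with AFB1 at 0.25, 1 and 2.5 µM. It was low with methyl methanesulfonate (MMS) at 50, 100 and 200 µM as well (-0.25, -0.65 and -0.42). With ETP at 0.5, 2.5 and 10 µM it was 0.05, -0.06 and -0.06, and with 2NF at 10, 50 and 250 µM it was -0.10, -0.03 and -0.12. Over the 15 libraries of chemicals that do not damage DNA directly, COL among them, it ranged from -0.05 to 0.09. The p53 targets had a different order: their median log2 ratio at the highest concentration was 0.27 for cisplatin, 0.82 for AFB1, 0.47 for MMS, 0.47 for 2NF and 0.44 for ETP. The concentrations are not matched in toxicity, and these differences between chemicals were not tested.

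The test of cisplatin against the 4 other DNA damaging chemicals (the cisplatin slope minus the mean of their slopes) called 0 of 13812 genes in edgeR (0.0%), with 721 at an unadjusted p under 0.05, and DESeq2 also called 0. The test against ETP called 0 (0.0%), with 290 genes at an unadjusted p under 0.05, and 0 in DESeq2. The differences of named genes were given by their size and error. FHIT differed from its ETP slope by -1.54 ± 0.51 and WWOX by -1.69 ± 0.59 (adjusted p = 1.0 for both, edgeR), and from the mean of the 4 chemicals by -0.20 ± 0.42 and -0.65 ± 0.50. CDKN1A differed from ETP by -0.27 ± 0.36 and MDM2 by 0.15 ± 0.74. CYP3A4, the main drug-metabolising P450 of the liver, had a slope of -0.56 ± 0.46 with cisplatin, -0.43 with ETP, -1.85 with MMS, -3.17 with 2NF and -5.59 with AFB1, and the difference from the mean of the 4 was 2.20 ± 0.52 (unadjusted p = 0.000244, adjusted p = 0.564, edgeR). Without the 10 µM library the 2 tests called 351 and 152 genes.

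Genes of drug metabolism lay mostly below the controls or within them. Of 28 phase I and II enzyme genes, 17 were below the DMSO range at 10 µM and 2 above, where 16.5% and 25.0% of all genes were. Below it were 11 at 5 µM and 16 at 2 µM, where 31.1% and 32.6% of all genes were. The median log2 ratio was -0.45, -0.31 and -0.38 at 2, 5 and 10 µM, and the other DMSO controls had medians from -0.16 (ETP set) to 0.25. All 3 libraries were below the DMSO range for 5 genes, CYP2C19, CYP3A5, CYP3A7 and CYP7A1 among them, where 3.75% of all genes were. Without the 2 µM library the number was 9, where 8.52% of all genes were below, and without the 5 µM library it was 12, where 6.45% were. CYP7A1, the rate-limiting enzyme of bile acid synthesis, was at 5.36, 10.8, 23.2 and 3.93 RPM in controls and at 3.55, 3.59 and 2.69 RPM with cisplatin, without overlap. CYP1A2, an aryl hydrocarbon receptor target, was at 28.9, 23.8, 19.2 and 38.6 RPM in controls and at 25.3, 16.3 and 9.26 RPM, in the order of concentration (slope -1.73 ± 0.48, unadjusted p = 0.00122 and adjusted p = 0.697 in edgeR). CYP3A4 was at 164.6, 279.0, 113.2 and 138.2 RPM in controls and at 98.3, 131.2 and 98.6 RPM, and the controls themselves differed by up to 1.29 (log2). UGT1A1, which conjugates bilirubin, was at 747.2, 569.7, 320.3 and 610.5 RPM in controls and at 690.6, 399.7 and 494.3 RPM, within the controls throughout.

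Of 19 hepatocyte markers, 10 were below the DMSO range at 10 µM and 1 above (median log2 ratio -0.18), where 16.5% and 25.0% of all genes were. At 5 µM 6 were below and 2 above (median 0.06), where 31.1% and 29.1% were. TTR, transthyretin, was at 5059, 5488, 4802 and 5207 RPM in controls and at 6030, 4685 and 3762 RPM with cisplatin, above, below and below the controls. APOB, the structural protein of very low density lipoprotein, was at 4847, 3422, 4521 and 4957 RPM in controls and at 5576, 3567 and 3507 RPM, and only the 2 µM value was outside. ALB, albumin, was at 33210, 21740, 26130 and 17790 RPM in controls and at 17550, 12920 and 26120 RPM, with the 10 µM value inside the control range. Of 15 hepatocyte transcription factors, 8 were below the range at 10 µM and 2 above (median -0.05), whereas at 5 µM 6 were below and 8 above (median 0.28). The 7 defining hepatocyte markers were all detected and summed to 35633 to 50106 RPM in the controls and to 36407, 26749 and 39966 RPM with cisplatin. Of the 5 cholangiocyte markers KRT7 and EPCAM were under 1 RPM in all 7 libraries, and the sum was 465 to 1339 RPM in controls and 901, 931 and 791 RPM with cisplatin. The 4 stellate and fibroblast markers, of which COL1A2 was under 1 RPM in all 7 libraries, summed to 46.4 to 68.2 RPM in controls and 54.5, 59.2 and 54.2 RPM with cisplatin. The 4 endothelial and immune markers, of which CDH5 and PTPRC were under 1 RPM in all 7 libraries, summed to 80.7 to 107.9 RPM in controls and 55.2, 113.5 and 90.1 RPM. In bulk RNA, fewer cells of a type and less RNA per cell cannot be told apart.

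Genes known to carry or bind platinum showed no common direction. For the counts that follow, 25.0% of all genes were above and 16.5% below the DMSO range at 10 µM. At 5 µM these shares were 29.1% and 31.1%, and at 2 µM 25.3% and 32.6%. Of 21 transport genes, 4 were above and 5 below the DMSO range at 10 µM (median log2 ratio -0.02). SLC31A1, the copper importer CTR1, was at 163.1, 145.7, 134.2 and 131.0 RPM in controls and at 153.5, 116.0 and 150.5 RPM with cisplatin (slope -0.18 ± 0.24). ATP7B, a copper exporter of the liver, was at 21.9, 17.8, 17.2 and 20.4 RPM in controls and at 18.9, 20.8 and 18.3 RPM, within the controls. ABCG2, an efflux pump, was at 21.8, 20.3, 18.7 and 20.2 RPM in controls and at 19.1, 12.9 and 14.7 RPM. Of 12 metallothionein genes 6 passed the RPM filter, and their median log2 ratio was -0.89, 0.73 and 0.21 at 2, 5 and 10 µM, against -0.32 to 0.62 in the other DMSO controls. At 2 µM 5 of the 6 were below the DMSO range and none above, at 5 µM 4 were above and none below, and at 10 µM 1 was above and 1 below. MT1E was at 452.5, 597.0, 371.3 and 231.1 RPM in controls and at 123.2, 712.7 and 469.1 RPM with cisplatin, and MT1A, MT1F and MT1G were likewise above the controls at 5 µM. MT2A was at 2805, 4550, 2915 and 2639 RPM in controls and at 2377, 4329 and 3660 RPM, below the controls at 2 µM and inside them at 5 and 10 µM. MT1X was at 299.4, 685.4, 230.5 and 147.0 RPM in controls and at 87.2, 545.8 and 375.5 RPM, likewise inside the controls except at 2 µM. Of 22 glutathione and NRF2 genes, 1 was above and 2 below at 10 µM (median 0.00), and of 19 genes of the integrated stress and unfolded protein response 1 was above and 3 below (median -0.16). Of 11 heat shock genes 2 were above and none below at 10 µM (median 0.19).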

How the data were processed

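Libraries were AmpliSeq Human Transcriptome panels of pooled RNA sequenced on an Ion Proton. Per the labels and the study's methods, the authors aligned reads to the panel's hg19 transcripts with TMAP in the Ion Torrent Suite, pooled reads of 5 chips by barcode, and deposited unscaled read counts per target. RPM values, which the authors deposited beside them, are counts scaled to the library total. The RPM recomputed here differed from the deposited values by at most 0.000538. Of 20812 targets, 10 spike-ins with a largest count of 0 were left out. The 6 annotation columns were not used.

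The counts of all 39 libraries were fitted with edgeR 4.0.16 in R 4.3.3 (TMM, filterByExpr, quasi-likelihood test), with the control set as a block and 1 slope per chemical on concentration over its highest concentration (20 residual degrees of freedom), and p-values were Benjamini-Hochberg adjusted over all genes tested. The spread comes from departures from these lines over 10 chemicals, since no condition has replicates, and it may be technical. DESeq2 1.42.0 and other normalizations, filters and libraries were alternatives. Folds used log2(RPM + 1), which understates changes of low genes, and a minimum mean of 1 RPM. Being past 2-fold (log2 ratio past 1) or outside the range of the 4 DMSO controls is a description without a test.

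Named genes were 13 fixed genes (CDKN1A, MDM2, DDB2, XPC, POLH, FAS, TP53I3, GDF15, SLC31A1, ATP7B, MT2A, CYP3A4 and ALB), genes passing the tests (up to 12 in each direction by slope and 6 in each direction for the contrast with the other DNA damaging chemicals and for the 2 µM departure, the slope and departure with a mean of at least 50 counts), and list members. The genes called by DESeq2 and the long genes were named after their values were seen. The members and lists were chosen with earlier results of these data known. Gene span and transcript GC content (longest transcript) came from GENCODE release 29 (GRCh38) by symbol or Entrez identifier, and 95.4% of the genes had both. Promoters came from RefSeq (GRCh38.p14), whose coordinates differ from those of hg19. Total counts limit the precision of low genes, the libraries carry no molecular identifiers, and strand was not used. Summaries used pandas 2.3.3 and numpy 2.4.6 under Python 3.11.15, and plots matplotlib 3.10.9. Values of some genes are not reported here.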

Additional observations from a re-analysis of the deposited data

Results flagged for a closer look

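Among 25 measures checked over the 4 DMSO controls (the 13 fixed genes, 10 gene lists, the gene-span difference and the genes low in the 2 µM library), 1 had a sample far from the others. MDM2 was at 7.92 on the log2(RPM + 1) scale in the DMSO control of the ETP set, against 8.61 to 8.75 in the other 3. Chance flags about 1 in 20 such groups. The 2 µM cisplatin library lay next to this control, so MDM2 at 2 µM is within the control range only because of it.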

How the results depend on the processing

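No paired analysis beyond the match by control set was possible, because each condition is 1 pooled library. For the slope, DESeq2 called 7 genes and leaving out libraries gave 0 to 444 (444 without the 10 µM library, 20 without the matched control), while the other settings gave 0. Leaving out libraries gave 0 to 351 for the contrast with the other DNA damaging chemicals and 0 to 152 for that with ETP, both highest without the 10 µM library. The 2 µM departure gave 681 genes in DESeq2 against 273. A pseudocount of 0.1 gave 69, 205 and 114 genes past 2-fold higher at 2, 5 and 10 µM and 118 lower at 10 µM. The mean of the 4 DMSO controls as reference gave 12 and 37 higher at 2 and 5 µM and 323 lower at 5 µM. Without 1 cisplatin library, the numbers of genes outside the DMSO range in all remaining libraries were 8 to 22 for p53 targets, 5 to 11 for replication and 9 to 14 for mitosis. They were 2 to 8 for Fanconi genes, 3 to 5 for checkpoint genes and 7 to 12 for enzymes. The counts at 10 µM alone stayed within 1.5 times under TMM scaling and without each DMSO control. The gene-span difference at a GC content of 40 to 50% was -0.086 at 2 µM and -0.41 at 5 µM, and with genes over 500 kb it was -0.53 at 10 µM. Of 143 slopes of the 13 fixed genes under alternatives, 7 changed sign: CDKN1A and ALB without the matched control, POLH without the 10 µM library, and XPC with library totals only (0.027), in 7 libraries without a block (0.060), without the 5 µM and without the 2 µM library. Leaving out libraries gave slopes of -0.14 to 0.90 for CDKN1A, -2.66 to 0.68 for ALB, -1.01 to 0.50 for POLH and -1.06 to 0.16 for XPC. Without changing sign, they also gave 0.075 to 1.43 for MDM2, 0.10 to 1.16 for FAS, 0.47 to 0.81 for DDB2, 0.52 to 1.02 for TP53I3, 0.84 to 2.22 for GDF15, 0.35 to 1.33 for MT2A, -1.04 to -0.11 for SLC31A1, -0.28 to -0.13 for ATP7B and -0.77 to -0.24 for CYP3A4. Slopes without the 10 µM library were extended from 5 to 10 µM and are not observed changes. Those without the matched control compare the treated libraries only. The causes of the differences between settings were not tested. The gene-span and list settings were chosen after seeing the data. With 1 pooled library per condition and between 9548911 and 15224146 counts, genes near 1 RPM rest on few reads.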

Other observations

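Gene groups not described above were compared with the same DMSO range, above which 25.0% and below which 16.5% of all genes lay at 10 µM. Of 24 genes of ribosomal RNA synthesis, 13 were above the range at 10 µM and 1 below (median log2 ratio 0.20, against -0.11 to 0.18 in the other DMSO controls), while 7 were above and 10 below at 5 µM. Of 19 replication-dependent histone genes, 8 were above and 1 below at 10 µM (median 0.04, controls -0.36 to -0.03). Of 15 interferon response genes, 6 were above and none below at 10 µM (median 0.19, controls -0.15 to 0.11). Of 15 sterol synthesis genes, 3 were above and 5 below at 10 µM (median -0.11, controls -0.10 to 0.06). Of 16 inflammation genes, 3 were above and 1 below at 10 µM (median 0.20), a median within the 0.07 to 0.35 of the other DMSO controls. For 19 immediate early genes and 12 acute phase genes the 10 µM medians of 0.05 and 0.07 lay beside control medians of up to 0.54 and 0.49. In the slope test edgeR and DESeq2 called none of the genes in these lists, and 4 had an unadjusted p under 0.05 in edgeR (3 of ribosomal RNA synthesis and 1 of inflammation).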
